A study of Mus musculus with 2 samples.

Results

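Dscam, Dscaml1, Flrt3, Fat3, Cadm1 and Gfra2 encode cell-surface adhesion and guidance proteins best known from the nervous system, and all 6 were read here in dendritic cells (DCs) of the young mouse gut and its lymph nodes. They are 6 of the 32289 gene features measured, and they were picked by symbol because their counts differed between DC classes in these same cells. Their levels between classes are therefore given as descriptions, with no test. The cells came from untreated mice aged 15 days, out of the lymph nodes that drain the gut (mesenteric, mLN) and out of the lamina propria of the small intestine (siLP), and the sorting gate was CD3-B220-CD11c+MHC-II+. Every animal carried the Gm38411-iCre-hCD2 reporter genotype, no other genotype or treatment was included, and the sort did not use the reporter. There were 3 biological replicates per tissue, told apart by antibodies called hashtags 2, 4, 5, 6, 8 and 9, and all cells shared 1 gene expression library. The labels do not tie a hashtag to a tissue, nor say whether a replicate was 1 animal or a pool. So no tissue comparison was made, and each hashtag's value is given on its own.

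DSCAM and its paralogue DSCAML1 are large immunoglobulin-superfamily proteins that bind copies of themselves on neighbouring cells, and in neurons they keep sister branches and cells of 1 type apart. FLRT3 is a leucine-rich-repeat protein that binds latrophilins and the netrin receptor UNC5B, and FAT3 is a giant atypical cadherin that shapes neurites. CADM1 joins cells through its own copies and through the T cell receptor CRTAM and is a familiar surface marker of conventional type 1 DCs (cDC1). GFRA2 is the lipid-anchored receptor for neurturin, which signals with the kinase RET.

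Cells were sorted into classes by raw counts of unique molecular identifiers (UMIs), each UMI being 1 captured transcript. The Prdm16 gate (at least 5 Prdm16 UMIs) takes cells expressing the zinc-finger factor linked to RORgt+ DCs, and held 137 cells. The Fscn1 gate (at least 3 UMIs) takes cells with fascin, an actin-bundling protein of mature migratory DCs, and held 1177 cells. The C1q gate (at least 10 UMIs of C1qa, C1qb and C1qc, complement genes of macrophages) held 334 cells. The cDC1 gate (at least 3 UMIs of Xcr1 and Clec9a) held 2168 cells. The Mgl2 gate (at least 3 UMIs, a lectin of some type 2 DCs) held 671 cells, the Plet1 gate (at least 3 UMIs, a surface protein of some intestinal DCs) 1821 cells, and the Sirpa gate (at least 2 UMIs, a receptor of type 2 DCs) 4370 cells. A cell meeting several gates was put in the first in the order Prdm16, Fscn1, C1q, cDC1, Mgl2, Plet1 and Sirpa, and 4802 of the 15480 cells met none. Of the 137 cells of the Prdm16 gate, 33 also met the Fscn1 gate, 32 the Sirpa gate, 24 the Mgl2 gate and 3 the cDC1 gate.

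Hashtags held 1485 to 4865 cells, with a median of 6224 to 6564 UMIs per cell in hashtags 2, 4 and 5 and of 12000 to 12942 in hashtags 6, 8 and 9. The median mitochondrial share was 3.20% to 3.74% in the former hashtags and 1.47% to 1.55% in the latter. A level is given in CPM, the gene's UMIs per 1000000 gene UMIs, summed over the cells of 1 gate and 1 hashtag, and sums over at least 10 cells are used, except where the Prdm16 gate is split by Fscn1, whose cell numbers are given. Hashtag 8 had 4 cells in the Prdm16 gate and is left out there, and the Plet1 and C1q gates had enough cells in hashtags 6, 8 and 9 alone. Barcodes with at most 100 UMIs, which hold free RNA, carried each gene too, at 199.9 CPM for Dscam, 55.3 for Dscaml1, 109 for Flrt3, 44.1 for Fat3, 329 for Cadm1 and 12.5 for Gfra2. No barcode was listed more than once, and doublets of cells sharing 1 hashtag may remain.

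The labelled cell type was checked against markers. In the Prdm16 gate all 6 markers listed for RORgt+ DCs had UMIs, with a summed level of 1515 to 4637 CPM by hashtag against at most 148 CPM in any other gate. The 7 cDC1 markers summed to 3286 to 5666 CPM in the cDC1 gate and the 7 migratory DC markers to 1955 to 5287 CPM in the Fscn1 gate. The RORgt+ DC list includes Prdm16, the cDC1 list Xcr1 and Clec9a, and the migratory DC list Fscn1. Those genes chose the cells, so each sum was in part fixed in advance and is no independent check of the cell type. The Prdm16 gate also had the migratory DC markers at 706 to 2332 CPM, a range that overlaps that of the Fscn1 gate. Markers of type 3 innate lymphoid cells had UMIs for 3 of 7 genes there. They summed to 51.7 to 369 CPM, against at most 250 CPM in any other gate, with Il17a, Il17f, Il22 and Ncr1 at 0. Because the 6 genes are neuronal in name, nerve cell markers were read as well. The enteric glia markers S100b, Sox10, Gfap and Cdh19 had no UMI in the Prdm16 gate. The neuronal markers Snap25, Elavl3, Stmn2 and Ret were at 0 in the Prdm16 gate, and the 7 neuronal markers summed to 3.66 to 25.7 CPM there. In the Sirpa gate 5 of the 7 had UMIs and their sum reached 65.2 CPM. Elavl4, an RNA-binding protein gene, made up most of it, at 34.5, 60.5 and 37.0 CPM in hashtags 2, 4 and 5 and at most 0.69 CPM in hashtags 6, 8 and 9, while Snap25 and Stmn2 were at 0. The epithelial list had UMIs for 6 of 7 markers in the Prdm16 gate, at 317 to 742 CPM, with Krt19 at 0; its part in the results was not tested.

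Their genes differ greatly in size (GRCm38, GENCODE M21). Dscam spans 580 kb on the minus strand of chromosome 16 (97170752 down to 96590840) and has up to 33 exons. Dscaml1 covers 327 kb on the plus strand of chromosome 9 (45426628 to 45753712), and Cadm1 another 327 kb on the same chromosome and strand (47530173 to 47857637). Fat3, on the minus strand of chromosome 9 (15910189 to 16501285), spans 591 kb, Gfra2 90 kb on the plus strand of chromosome 14 (70890120 to 70979838), and Flrt3 only 21 kb on the minus strand of chromosome 2 (140650914 to 140671469). Dscam and Fat3 were each longer than 99.3% of protein-coding genes measured. The sources used here do not give whether intronic reads and strand entered the counting, so levels are compared between cells and never between genes. Flrt3 lies within an intron of Macrod2 on the other strand, and Macrod2 reached 91.4 CPM in the Prdm16 gate against at most 24.5 CPM in the Plet1 and Sirpa gates. Dscam shares its locus with 3 opposite-strand transcripts, of which the most counted, a processed transcript that overlaps Dscam exons, reached 139 CPM in the Prdm16 gate and 65.0 CPM in the Sirpa gate. Reads of Dscam and that transcript cannot be told apart if strand was not used.

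RefSeq's promoter table (GRCm38.p6) matched 3 of the 6 genes. Their 250 upstream bases are shown because Flrt3 and Fat3 shared a leading class in hashtags 6, 8 and 9 while Dscam had another. Each is written 5′ to 3′ on the gene's own strand, the minus strand, with CpG dinucleotides in capitals. Dscam's window is chr16:97170736-97170985, Flrt3's is chr2:140671477-140671726 and Fat3's is chr9:16502055-16502304.
Dscam: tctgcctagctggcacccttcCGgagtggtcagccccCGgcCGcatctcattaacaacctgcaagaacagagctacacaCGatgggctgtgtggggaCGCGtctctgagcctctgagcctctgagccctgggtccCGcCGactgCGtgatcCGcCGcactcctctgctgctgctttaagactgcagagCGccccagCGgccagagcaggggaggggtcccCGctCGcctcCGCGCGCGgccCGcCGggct
Flrt3: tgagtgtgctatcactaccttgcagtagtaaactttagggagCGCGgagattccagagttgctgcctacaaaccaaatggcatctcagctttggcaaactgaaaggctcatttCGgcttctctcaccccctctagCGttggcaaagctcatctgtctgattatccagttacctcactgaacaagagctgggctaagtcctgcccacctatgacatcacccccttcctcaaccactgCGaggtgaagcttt
Fat3: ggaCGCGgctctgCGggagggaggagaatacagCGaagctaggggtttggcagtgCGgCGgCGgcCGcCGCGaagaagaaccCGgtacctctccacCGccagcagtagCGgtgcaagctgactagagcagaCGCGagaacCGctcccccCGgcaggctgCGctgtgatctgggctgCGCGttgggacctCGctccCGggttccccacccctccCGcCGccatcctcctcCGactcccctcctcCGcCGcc
The windows of Dscam and Fat3 held 21 and 27 CpGs at 68.0% and 70.4% G+C, against 5 CpGs and 50.0% in Flrt3 and a median of 6 CpGs and 52.4% over 32851 promoters of that length. Searched on both strands, the E-box CANNTG was found 2 times in Flrt3 and in neither other window (66.2% of all promoters hold it). No window held the AP-1 motif TGANTCA (6.75% of promoters), the ETS core GGAAGT (19.7%), the RUNX motif TGTGGT (14.0%) or the CRE TGACGTCA (1.55%), which says only that those letters are absent from these bases. Flrt3 and Fat3 thus differed in CpG density in this window.

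**Figure D1:**
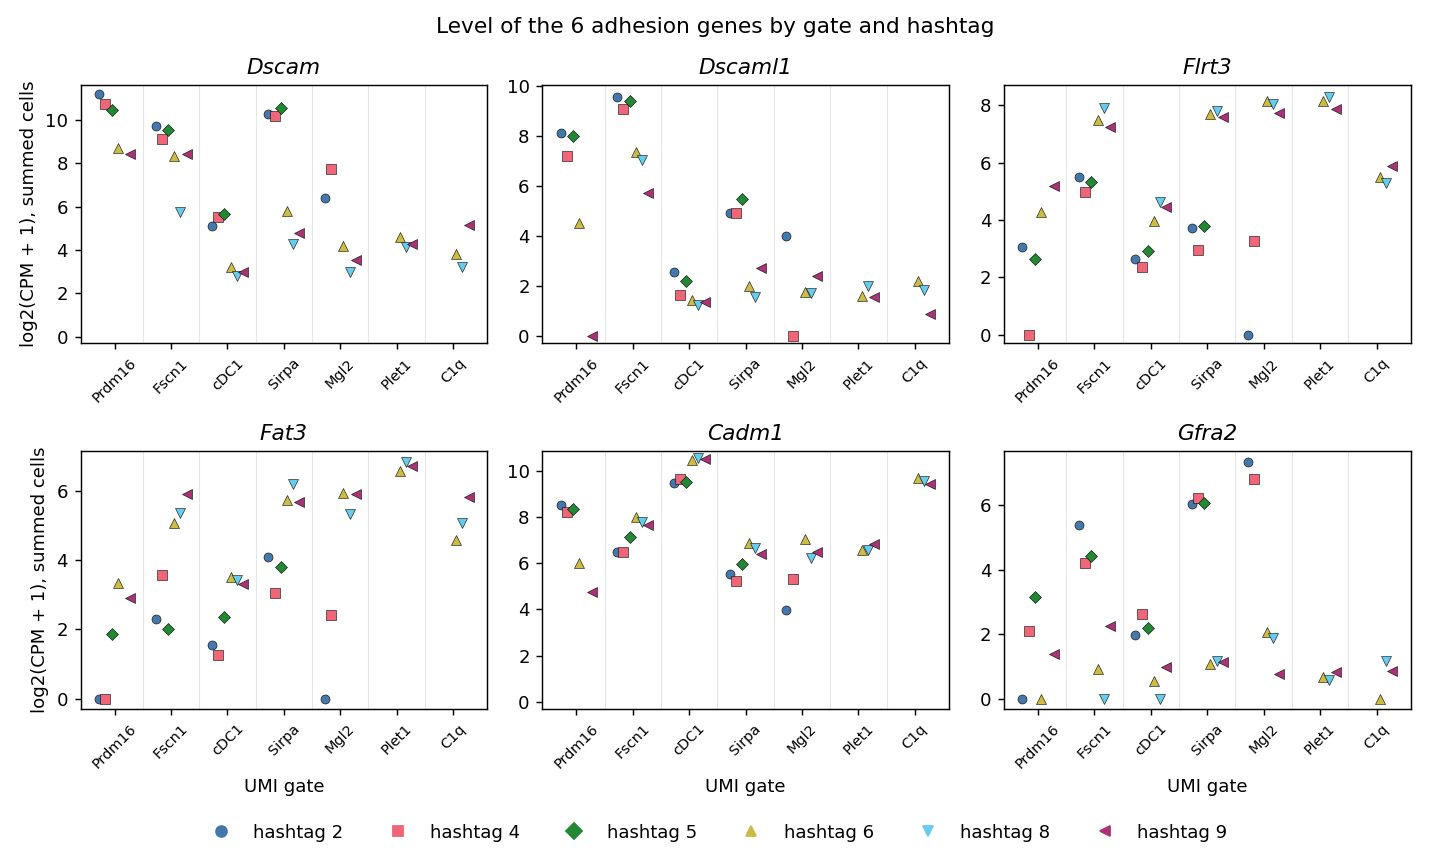
Level of each gene, as log2(CPM + 1) of UMIs summed over the cells of 1 gate and 1 hashtag (y axis), in 7 UMI gates (x axis); each point is 1 hashtag with at least 10 cells. The highest Dscam point is hashtag 2 in the Prdm16 gate; Dscaml1 is highest in the Fscn1 gate and Cadm1 in the cDC1 gate in every hashtag, and Flrt3 and Fat3 reach 313 and 112 CPM in the Plet1 gate.

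Among the homophilic receptors, Dscam was read in most cells of the Prdm16 gate. It gave 2133 UMIs in 117 of 137 cells (85.4%, exact binomial interval 78.4% to 90.8%). With every cell thinned to 2000 UMIs the share was 66.9% (58.3% to 74.7%), against 39.4% in the Fscn1 gate, 25.4% in the Sirpa gate and 2.35% in the cDC1 gate. These shares pool hashtags, and the gates differ in their mix of hashtags. Hashtags 2, 4 and 5 gave 27, 26 and 32 of the 137 Prdm16-gate cells, but 470, 478 and 428 of the 4370 Sirpa-gate cells. Dscam in the Sirpa gate differed strongly between hashtags, as given below, so its pooled share describes no single hashtag. The cDC1 gate, where 11.5% of unthinned cells had a Dscam UMI at a median depth of 16528 UMIs per cell, serves as the level of background. In hashtags 6, 8 and 9 the thinned share was 0.80% to 1.96% of cells in the cDC1 gate and 1.17% to 1.78% in the Mgl2 gate, which is read as background there. The Plet1 gate lay slightly above, at 2.58% to 3.85%, and the C1q gate at 2.78% to 8.22%, with at most 35.0 CPM in either. In hashtags 2 and 4 the Mgl2 gate stood apart from that level, on few cells (14 and 27): its thinned share was 21.4% and 29.6%, against 3.59% and 3.29% in the cDC1 gate.

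By hashtag, Dscam in the Prdm16 gate stood at 2322, 1702, 1374, 413 and 341 CPM (hashtags 2, 4, 5, 6 and 9). The corresponding levels in the Fscn1 gate were 846, 548, 730, 316 and 341 CPM, with 52.0 CPM in hashtag 8. Dscam was thus higher in the Prdm16 gate than in the Fscn1 gate in 4 of 5 hashtags, by 2.75-fold, 3.11-fold, 1.88-fold and 1.30-fold, and equal within counting error in hashtag 9 (interval of the ratio 0.849 to 1.18). Over the cDC1 gate, with 33.0, 45.2, 49.3, 8.22 and 6.92 CPM in these hashtags, the ratio was 27.9-fold to 70.3-fold. No hashtag overlapped between these 2 gates.

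For Dscam the Sirpa gate divided by hashtag, and the Mgl2 gate did so at lower levels. The level was 1220, 1145 and 1500 CPM in hashtags 2, 4 and 5 and 54.3, 18.5 and 26.7 CPM in hashtags 6, 8 and 9. In the first 3 hashtags the Prdm16 gate was 1.90-fold and 1.49-fold above the Sirpa gate and then 0.916 times its level (interval 0.836 to 1.002). Against that, it was 7.60-fold above it in hashtag 6 and 12.8-fold in hashtag 9. The Mgl2 gate had 82.5 and 209 CPM in hashtags 2 and 4, where the cDC1 gate had 33.0 and 45.2 CPM, and 17.4, 6.87 and 10.8 CPM in hashtags 6, 8 and 9; hashtag 5 had too few cells there. In hashtags 2, 4 and 5 the level was thus at least 548 CPM in the Prdm16, Fscn1 and Sirpa gates. In hashtags 6 and 9 it was at least 316 CPM in the Prdm16 and Fscn1 gates and at most 54.3 CPM in the 5 others. Median depth and mitochondrial share differ between the same hashtags, and their part in this split was not tested. Tissue may differ between these hashtags too, since there were 3 replicates per tissue. The labels do not tie hashtags to tissues, so tissue cannot be told apart from this split and its part was not tested.

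The split was in the share of cells as well as in the sum. In the Sirpa gate, 15.7%, 18.6% and 10.7% of cells lacked a Dscam UMI in hashtags 2, 4 and 5, although cells of these hashtags held fewer UMIs, against 85.7%, 86.9% and 86.9% in hashtags 6, 8 and 9. Cells with at least 5 Dscam UMIs made up 55.3%, 49.8% and 65.7% of the Sirpa gate in the former and 3.75%, 0.97% and 1.91% in the latter. In the Prdm16 gate cells with at least 5 UMIs were 66.7%, 76.9%, 78.1%, 65.2% and 40.0% of cells in hashtags 2, 4, 5, 6 and 9. The median Prdm16-gate cell held 7, 11, 10.5, 7 and 4 Dscam UMIs. A few cells weighed on the sums: in hashtag 2, the top 3 of 27 cells held 64.9% of the UMIs, and the highest cell held 216.

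**Figure D2:**
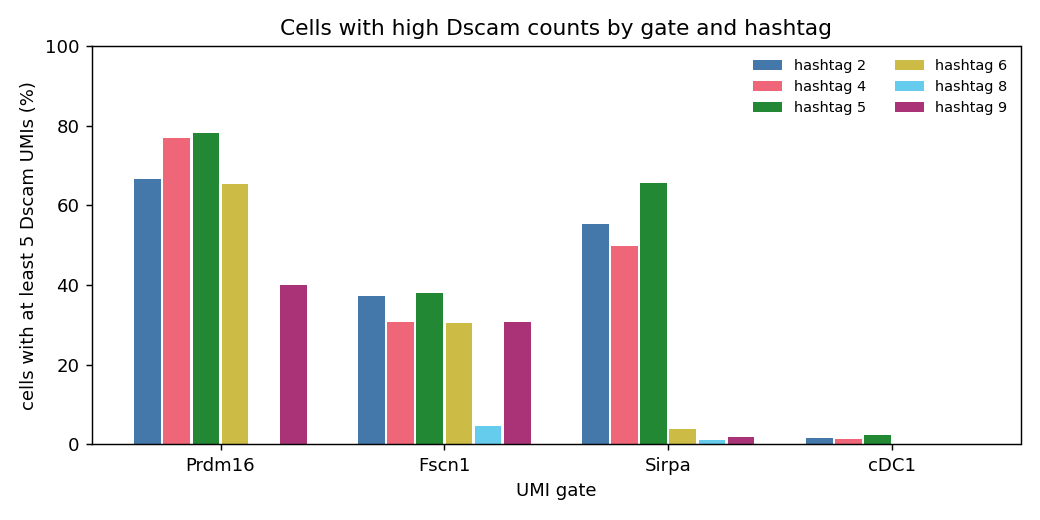
Share of cells with at least 5 Dscam UMIs (y axis, percent) in 4 UMI gates (x axis), 1 bar per hashtag; hashtag 8 is not shown for the Prdm16 gate, where it had 4 cells. Bars of the Sirpa gate reach 49.8% to 65.7% in hashtags 2, 4 and 5 and at most 3.75% in hashtags 6, 8 and 9, while those of the Prdm16 gate run from 40.0% to 78.1%.

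Around the threshold that defines the Prdm16 gate, Dscam had no jump, given as a description since Prdm16 counts chose the cells. Cells with 3 or 4 Prdm16 UMIs (21 cells) had Dscam at 472 CPM and those with 5 or 6 (10 cells) at 428 CPM. Cells with none (15013 cells) had 177 CPM, and cells with 10 or more (106 cells) had 1025 CPM.

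Dscaml1, the paralogue, was foremost a gene of the Fscn1 gate. Its level there was 750, 535, 663, 161, 129 and 52.0 CPM in hashtags 2, 4, 5, 6, 8 and 9, and 61.9% of cells had a UMI (43.8% after thinning). The Prdm16 gate followed with 278, 146 and 254 CPM in hashtags 2, 4 and 5, with 22.0 CPM in hashtag 6, and with no UMI in hashtag 9. The Fscn1 gate was 2.61-fold to 7.33-fold above the Prdm16 gate in 4 hashtags and at least 10.7-fold above it in hashtag 9, taking 3 UMIs as the limit that a count of 0 allows. In the Sirpa gate the level was 29.1, 29.4 and 43.2 CPM in hashtags 2, 4 and 5 and at most 5.60 CPM in the others. The cDC1 gate had 1.35 to 4.86 CPM. Thinned shares of 0.51%, 0.45% and 0.50% in the cDC1, Mgl2 and Plet1 gates are read as background, and the C1q gate had 1.21% at no more than 3.53 CPM.

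Cells of the Prdm16 gate were not alike in the paralogues. Splitting the gate by Fscn1 gave 33 cells with at least 3 Fscn1 UMIs and 104 cells with fewer. In the 33 cells Dscaml1 stood at 518, 703 and 422 CPM in hashtags 2, 4 and 5 (7, 4 and 10 cells, of which 6, 2 and 5 had a UMI). In the 104 others it stood at 107, 57.6 and 157 CPM, lower in each of these hashtags. Hashtags 6 and 9 had no Dscaml1 UMI in their 5 and 7 Fscn1-positive cells. Dscam did not follow the same order: it was 2185, 630 and 916 CPM in the Fscn1-positive cells against 2420, 1872 and 1638 CPM in the others (hashtags 2, 4 and 5), and 531 and 429 against 375 and 308 CPM in hashtags 6 and 9. When cells meeting several of the Prdm16, Fscn1, C1q and cDC1 gates were left out, the median Dscaml1 level of the Prdm16 gate over hashtags was 60.6 CPM in place of 146 CPM. Cells that also met the Mgl2, Plet1 or Sirpa gate were kept in that setting.

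**Figure D3:**
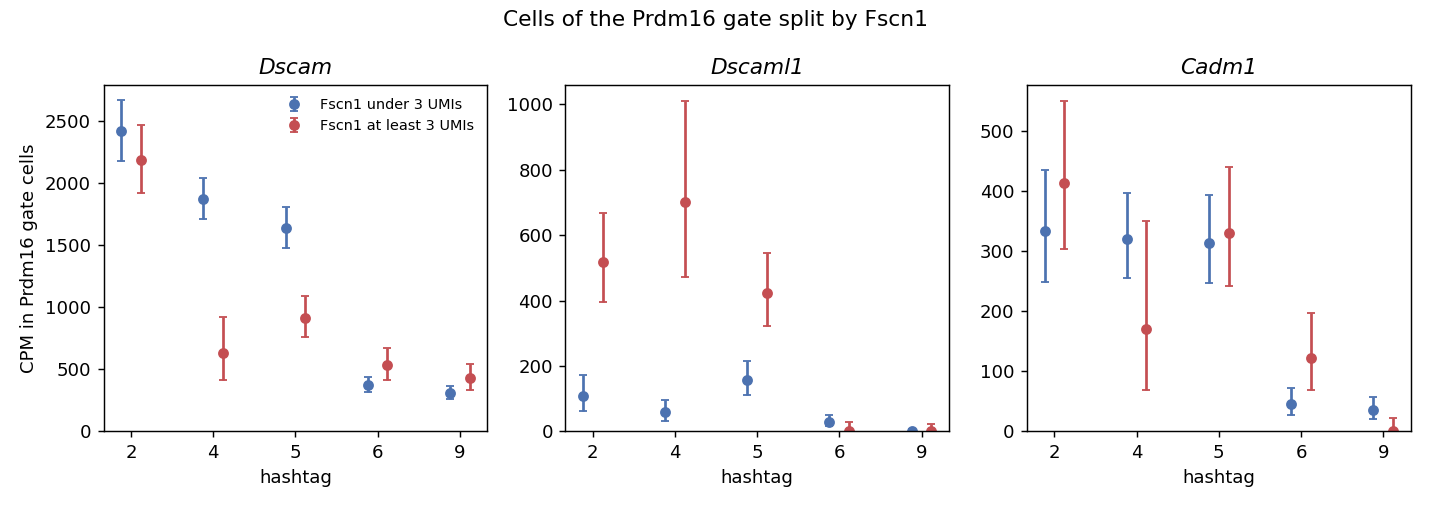
Levels of 3 genes in cells of the Prdm16 gate (y axis, CPM) by hashtag (x axis), for cells with fewer than 3 and at least 3 Fscn1 UMIs; points are sums over 4 to 22 cells and bars exact Poisson intervals for counting error only. Dscaml1 is higher in the Fscn1-positive cells in hashtags 2, 4 and 5, and Dscam is lower in them in hashtags 4 and 5, with overlapping bars in hashtag 2.

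Within the Fscn1 gate the paralogues also divided by hashtag. Cells with a Dscaml1 UMI had less Dscam than cells without one in hashtags 2, 4 and 5 (764 against 1055, 459 against 719 and 608 against 995 CPM). They had more in hashtag 6 (747 against 116 CPM, 23 and 46 cells) and in hashtag 9 (616 against 260 CPM, 20 and 71 cells). The direction of this difference in summed Dscam thus was not the same in every replicate, and the part of depth was not tested.

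Cadm1 was highest in the cDC1 gate. It reached 699, 793, 726, 1427, 1494 and 1466 CPM in hashtags 2, 4, 5, 6, 8 and 9, and 93.8% of cells had a UMI (76.2% after thinning). Levels in the Sirpa gate were 44.9, 36.6, 61.3, 118, 98.6 and 83.5 CPM, so the cDC1 gate stood 11.8-fold to 21.6-fold above it in every hashtag. In the C1q gate, whose complement genes mark macrophages, Cadm1 was read at 826, 757 and 681 CPM in hashtags 6, 8 and 9, with 91.3% of cells positive. That is lower than in the cDC1 gate of the same hashtags and higher than in any other gate.

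The Prdm16 gate held an intermediate level of Cadm1 in some replicates only. It was 366, 299 and 319 CPM in hashtags 2, 4 and 5, which is 8.14-fold, 8.15-fold and 5.21-fold above the Sirpa gate and 4.14-fold, 3.40-fold and 2.29-fold above the Fscn1 gate. In hashtags 6 and 9 it was 64.2 and 25.8 CPM, below both the Sirpa gate (0.545 and 0.31 times its level) and the Fscn1 gate (254 and 198 CPM). The 7 cDC1 markers summed to 943 to 1363 CPM in the Prdm16 gate, a range that overlaps the 805 to 1418 CPM of the Sirpa gate, and only 3 of its cells met the cDC1 gate. Cadm1 and Dscam were found together: among cells of the Prdm16 gate with a Cadm1 UMI, Dscam was 2958, 1983 and 1743 CPM in hashtags 2, 4 and 5, against 948, 797 and 852 CPM in cells without. Cells with a Cadm1 UMI were also deeper (medians of 10970, 12703 and 14254 UMIs against 7022, 6043 and 7311), and the part of depth was not tested. Over the 137 cells Spearman's rho of UMI shares was 0.50 for Dscam with Cadm1, but levels of both genes differ between hashtags. Within hashtags it was 0.51, 0.47, 0.41 and 0.45 in hashtags 2, 4, 5 and 6 and 0.04 in hashtag 9 (23 to 32 cells each). For Dscam with Dscaml1 the pooled value was 0.24, and within hashtags 2, 4 and 5 it was 0.17, -0.09 and 0.03. For Dscaml1 with Aire, the regulator of self-antigen expression, these were 0.54 pooled and 0.53, 0.34 and 0.47 within hashtags 2, 4 and 5. Hashtags 6 and 9 held only 1 cell with Dscaml1 between them.

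**Figure D4:**
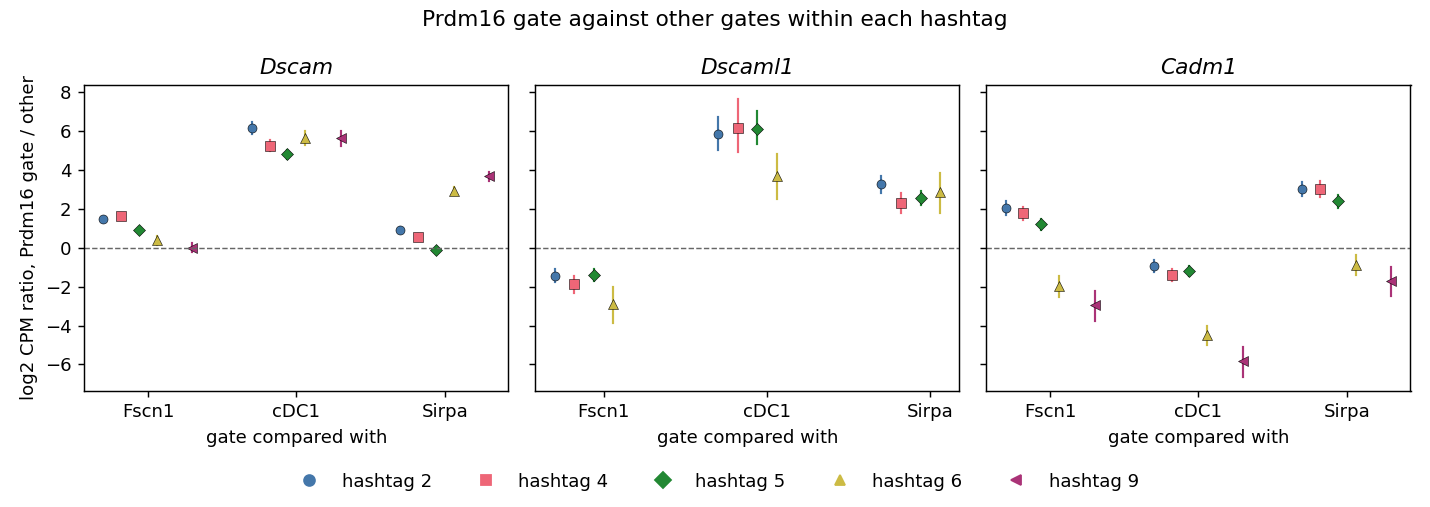
Ratio of the level in the Prdm16 gate to that in the Fscn1, cDC1 and Sirpa gates (y axis, log2 of the CPM ratio; x axis, the other gate) for 3 genes, 1 point per hashtag with a 95% interval for counting error. Dscam lies above 0 against the cDC1 gate in all 5 hashtags, and Cadm1 is above 0 against the Sirpa gate in hashtags 2, 4 and 5 and below 0 in hashtags 6 and 9; Dscaml1 had no UMI in hashtag 9.

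Members were counted per cell in the Prdm16 gate. Of its 137 cells, 15 had a UMI of none of the 6 genes, 46 of 1, 49 of 2, 25 of 3 and 2 of 4. Cells with Dscam and Cadm1 numbered 58 and cells with Dscam and Dscaml1 29. Flrt3 had 36 UMIs in the whole gate, Fat3 10 and Gfra2 5, so these 3 genes add little to the count.

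Flrt3, the latrophilin ligand, had an order of classes unlike that of Dscam. It reached 283, 313 and 232 CPM in the Plet1 gate in hashtags 6, 8 and 9, where 60.0% of cells had a UMI (32.2% after thinning). The Mgl2 gate had 283, 262 and 210 CPM in these, and the Sirpa gate 208, 223 and 191 CPM. The Mgl2 range overlapped both others, while the Plet1 gate was 1.37-fold, 1.40-fold and 1.21-fold above the Sirpa gate and did not overlap it. In hashtags 2, 4 and 5 the Sirpa gate had only 12.1, 6.66 and 12.8 CPM, and 90.7% to 95.6% of its cells had no Flrt3 UMI. The same hashtags were the ones with Dscam in the Sirpa gate, so the 2 genes marked the gate in different replicates. Within a hashtag the contrast was weaker: cells of the Sirpa gate with a Dscam UMI had Flrt3 at 176 CPM against 214 CPM in hashtag 6, 203 against 227 CPM in hashtag 8, and 141 against 200 CPM in hashtag 9.

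The Fscn1 gate carried Flrt3 in every hashtag, at 44.4, 30.2, 39.3, 180, 239 and 152 CPM. There it was above the Sirpa gate in hashtags 2, 4 and 5 and below it in hashtags 6 and 9. In hashtag 8 the 2 gates were close, at 239 against 223 CPM, with 22 cells in the Fscn1 gate. The cDC1 gate had 4.14 to 23.5 CPM and the Prdm16 gate 0 to 35.5 CPM. Their thinned shares, pooled over hashtags, were 2.31% and 1.47% and are read as background. The highest Prdm16-gate level was in hashtag 9, at 35.5 CPM against 20.8 CPM in the cDC1 gate. There 68.0% of the 25 Prdm16-gate cells had no Flrt3 UMI and 2 cells had at least 5, so the pooled share does not describe that hashtag.

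Fat3, the giant cadherin, was highest in the Plet1 gate where that gate was read. Its levels were 93.9, 112 and 103 CPM in hashtags 6, 8 and 9, with 38.0% of cells positive (14.4% after thinning). Those exceeded the Sirpa gate of the same hashtags (51.6, 72.7 and 49.5 CPM) by 1.82-fold, 1.54-fold and 2.07-fold, and the 2 gates did not overlap. In the Mgl2 gate Fat3 stood at 59.8, 38.9 and 59.4 CPM and in the Fscn1 gate at 32.4, 39.8 and 59.0 CPM in these hashtags, so both overlapped the Sirpa gate. Hashtags 2, 4 and 5 had 15.9, 7.22 and 12.8 CPM in the Sirpa gate. The cDC1 gate had 1.38 to 10.4 CPM and the Prdm16 gate 0 to 9.17 CPM, with thinned shares of 0.92% and 0% (0 of 136 cells, exact interval up to 2.68%) that are read as background.

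Flrt3 and Fat3 shared cells only loosely. In the Plet1 gate, cells with a Flrt3 UMI had Fat3 at 112 CPM against 62.5 CPM in hashtag 6 and at 111 against 90.8 CPM in hashtag 9, but at 111 against 113 CPM in hashtag 8. The 2 genes therefore had the same leading class without a common direction from cell to cell in all 3 replicates.

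Gfra2, the neurturin receptor, was the least counted of the 6, with 1488 UMIs in 781 cells. It was read in the Sirpa gate at 64.7, 73.3 and 65.8 CPM in hashtags 2, 4 and 5 and at 1.12, 1.25 and 1.23 CPM in hashtags 6, 8 and 9. The Mgl2 gate had 157 and 111 CPM in hashtags 2 and 4 (14 and 27 cells) and at most 3.17 CPM in hashtags 6, 8 and 9. In the Fscn1 gate it was 40.5, 17.3 and 20.2 CPM in hashtags 2, 4 and 5. All other gates and hashtags had at most 7.85 CPM. Gfra2 thus accompanied Dscam in the Sirpa gate of the same hashtags, but not in the Prdm16 gate, which held 5 UMIs. Within the Sirpa gate, cells with and without Dscam had Gfra2 at 58.0 and 109 CPM in hashtag 2, 75.2 and 62.8 in hashtag 4, and 66.9 and 55.5 in hashtag 5, with no common direction.

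Known binding partners were read in the same cells. Adgrl3, a latrophilin that binds FLRT3, was abundant, with 280048 UMIs. Its level in the Sirpa gate was 940, 1087, 1068, 2274, 2629 and 2347 CPM by hashtag and in the Plet1 gate 2253, 2405 and 2315 CPM. In hashtags 6, 8 and 9 ligand and receptor were thus read in the same classes. In hashtags 2, 4 and 5 the Sirpa gate had Adgrl3 with Flrt3 at only 12.1, 6.66 and 12.8 CPM. The C1q gate had the most Adgrl3, at 3664, 4455 and 3178 CPM, with little Flrt3 (38.2 to 57.4 CPM). Unc5b, the netrin receptor that binds FLRT3, had 15 UMIs in all cells. For CADM1, the partner Crtam had 103 UMIs, and the related Cadm3 was read in the Sirpa gate at 49.9, 52.5 and 38.1 CPM in hashtags 2, 4 and 5 and at no more than 0.52 CPM in the others. In the Prdm16 gate Cadm3 stood at 91.4, 36.5 and 68.0 CPM in hashtags 2, 4 and 5, at 0 in hashtag 6 and at 6.46 CPM in hashtag 9. GFRA2's signalling kinase gene Ret had 48 UMIs and its ligand gene Nrtn 28. For DSCAM, Ntn1, a netrin it can bind, had 126 UMIs and the netrin receptor gene Dcc 25. Unc5c, a further netrin receptor gene, had 173 UMIs, of which 107 fell in the Prdm16 gate. Its level there was 106, 86.2, 65.4, 49.5 and 0 CPM in hashtags 2, 4, 5, 6 and 9, against at most 2.99 CPM in any other gate. The value in hashtag 6 came from 1 cell (4.35% of cells had a UMI). Ntn1 reached 33.7 CPM in the Fscn1 gate and 18.3 CPM in the Prdm16 gate, and at most 0.78 CPM elsewhere. Few UMIs of Ret, Nrtn and Dcc in these sorted cells say nothing of cells outside the sort.

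By the rule of likeness (Pearson correlation of log2(CPM + 1) over 34 gate-by-hashtag sums, which share hashtags, depth and 1 library, so no p is given), the nearest genes to Dscam were St8sia1 (0.96), a ganglioside sialyltransferase, Tmem131l (0.94) and Elk3 (0.94), an ETS-domain factor. St8sia1 was 439, 541 and 416 CPM in the Prdm16 gate of hashtags 2, 4 and 5 and 80.7 and 67.9 CPM in hashtags 6 and 9. For Dscaml1 they were Gm42601 (0.95), Tmem150c (0.94) and Htra2 (0.93), a mitochondrial protease. Flrt3 had Rad23b (0.93), Dennd5a (0.93) and Btg1 (0.92), and Fat3 had Cd80 (0.93), a costimulatory ligand, Osgin2 (0.93) and Plagl1 (0.93). Cadm1 had Fnip2, Clec1b and Rab7b (all 0.84), a lower likeness than the leading gene of the other 5. Gfra2 had St3gal4 (0.93), also a sialyltransferase, Irak4 (0.92) and Sept10 (0.91).

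The wider families of adhesion and guidance genes were tested, with the 6 genes left out. Of 182 genes in 8 lists, 78 were counted well enough for edgeR's quasi-likelihood test across gates within hashtags, and a gene is called where its p, adjusted by Benjamini and Hochberg's method, was below 0.05 over all 13026 genes tested. All 6 members passed the filter on low counts too, but they carry no p here. A gene counted in a single gate could pass that filter, so some genes may have entered through the gate where they are high. For these the direction of a call was in part set by the filter, in the lists and over all genes alike. Epha4 and Ephb3 averaged 50.0 and 18.5 CPM in the Prdm16 gate and at most 2.48 CPM in the Fscn1, cDC1 and Sirpa gates of the shared hashtags. The lists were assembled with earlier results of these cells known, and 4 contrasts share gates, so each is given by itself.

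Against the cDC1 gate, the Prdm16 gate had 43 of the 78 adhesion and guidance genes higher and 8 lower, where 37.8% of all genes tested were called, 18.4% higher and 19.5% lower. Of all calls 48.5% were higher in the Prdm16 gate, and 60.6% with RLE size factors or 62.0% with DESeq2. The median log2 difference of the 78 was 1.54, against -0.08 over all genes. Semaphorins, plexins and neuropilins, which steer axons and cell migration, had 12 of 16 higher and 2 lower. Ephrins and Eph receptors, which sort cells by contact repulsion, had 8 of 10 higher and none lower. Plxna4, a semaphorin receptor, rose by 7.31 ± 0.73 (log2, SE; edgeR adjusted p = 2.6e-09), with 388, 259, 379.5, 36.7 and 9.69 CPM in the Prdm16 gate of hashtags 2, 4, 5, 6 and 9 and at most 1.64 CPM in the cDC1 gate. Plxna4 was not confined to the Prdm16 gate. In hashtags 6, 8 and 9 the C1q gate had 215, 156 and 114 CPM of Plxna4 and the Fscn1 gate 44.1, 88.7 and 24.1 CPM. Both gates were thus above the Prdm16 gate in hashtags 6 and 9. Against the cDC1 gate Epha4 rose by 7.73 ± 0.81 (edgeR adjusted p = 1.0e-08), and Cdh1, the epithelial cadherin, by 4.19 ± 0.44 (edgeR adjusted p = 7.5e-09). Among the nectins, which adhere as CADM1 does, Nectin1 rose by 1.38 ± 0.16 and its adaptor Afdn by 1.36 ± 0.19 (edgeR adjusted p = 6.0e-08 and 1.4e-06).

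Against the Sirpa gate 30 of the 78 genes were higher in the Prdm16 gate and 13 lower, where 35.2% of all genes were called, 16.3% higher and 18.9% lower. Of all calls 46.3% were higher in the Prdm16 gate, and 57.5% with DESeq2. Ephrins and Eph receptors again had 8 of 10 higher and none lower, among them Epha4 (4.47 ± 0.63, edgeR adjusted p = 2.7e-06), Ephb3 (5.48 ± 0.53) and Efnb1 (3.26 ± 0.38). The list of FLRT, latrophilin and teneurin genes went the other way: of 6 tested, 3 were lower and none higher. Adgrl3 fell by 3.65 ± 0.24 (edgeR adjusted p = 6.4e-13), with 940 to 2347 CPM in the Sirpa gate and 39.8 to 278 CPM in the Prdm16 gate of the 5 shared hashtags. Alcam, an immunoglobulin-superfamily partner of the T cell molecule CD6, fell by 1.80 ± 0.28 (edgeR adjusted p = 7.3e-06). Plxna4 rose by 5.40 ± 0.64, Sema6d by 3.29 ± 0.45, and the receptor phosphatase gene Ptprs by 1.56 ± 0.19, each in 5 of 5 hashtags.

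Against the Fscn1 gate the genes were split, with 17 higher and 20 lower in the Prdm16 gate, where 29.6% of all genes were called, 13.1% higher and 16.5% lower. Of all calls 44.4% were higher in the Prdm16 gate, and 53.2% with RLE size factors or 54.0% with DESeq2. The median log2 difference of the 78 was -0.49, against -0.09 over all genes. Ephrins and Eph receptors had 6 higher and 2 lower of 10. Nrp1, the co-receptor for class 3 semaphorins, rose by 2.71 ± 0.30 (edgeR adjusted p = 4.3e-08) and Epha4 by 4.58 ± 0.72 (edgeR adjusted p = 1.8e-05). Adgrl3 fell by 2.12 ± 0.23 (edgeR adjusted p = 3.8e-08), Alcam by 1.45 ± 0.27 and Ntng2, a netrin G protein gene, by 1.23 ± 0.22. Cdh2, the neuronal cadherin gene, fell by 1.84 ± 0.44 (edgeR adjusted p = 0.0021), a call lost without the hashtag block (adjusted p = 0.15). Without that block 2396 genes in all were called in place of 3853.

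Between the cDC1 and Sirpa gates 8 of the 78 genes were higher in the cDC1 gate and 40 lower, where 44.3% of all genes were called, 20.4% higher and 23.9% lower. The median log2 difference was -1.42, against -0.02 over all genes. None of the FAT and cadherin genes or of the ephrins and Eph receptors was higher in the cDC1 gate, and 6 of 10 in each list were lower. Adgrl3 fell by 3.24 ± 0.20 (edgeR adjusted p = 1.4e-13), Cadm3 by 4.15 ± 0.53 and the neuropilin gene Nrp2 by 3.31 ± 0.42, each in 6 of 6 hashtags. Cd226, a receptor for nectin-like ligands, rose by 2.11 ± 0.27 (edgeR adjusted p = 2.9e-07) but was not called without the hashtag block (adjusted p = 0.061). Sdc3, a heparan sulphate proteoglycan that binds GDNF-family ligands, rose by 2.35 ± 0.19 (edgeR adjusted p = 4.7e-11). Without the block 3422 genes in all were called in place of 5758. Cadm1, higher in the cDC1 gate in all 6 hashtags, thus lay in the direction opposite to most of the adhesion genes called there.

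**Figure D5:**
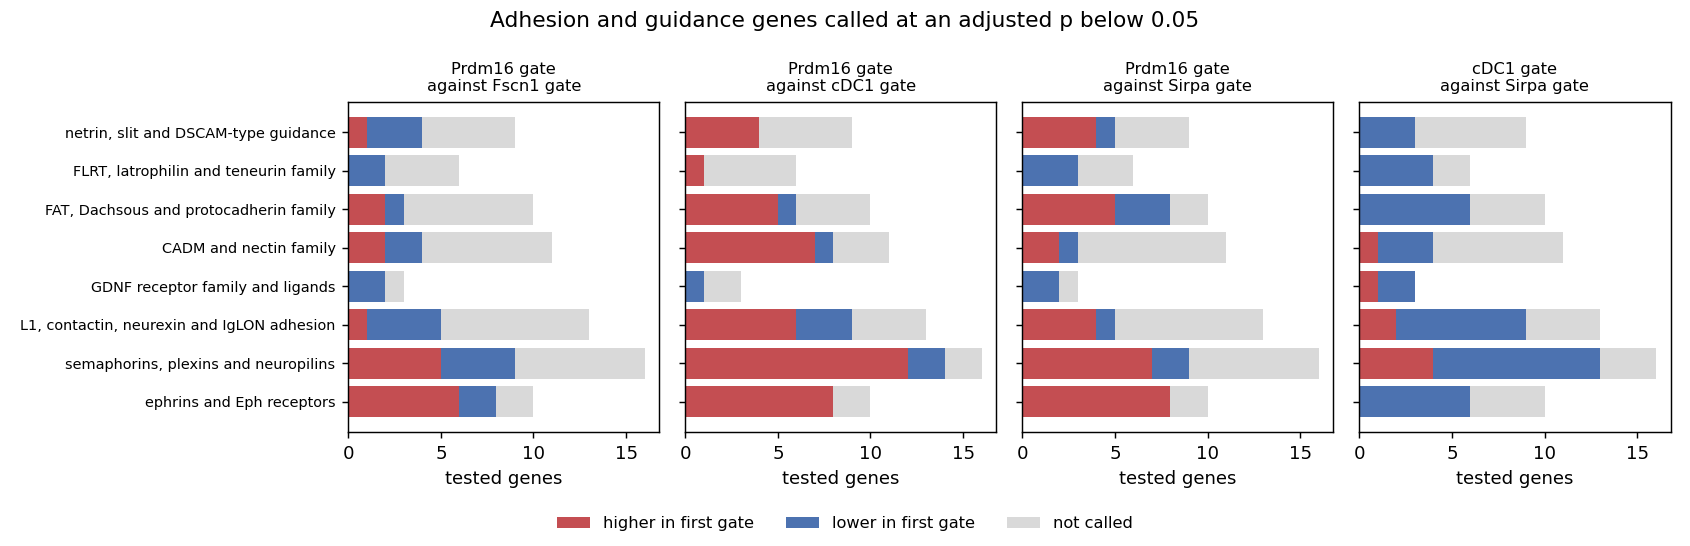
Number of tested genes (x axis) of 8 adhesion and guidance lists (y axis) that were higher in the first gate, lower in it or not called at an adjusted p below 0.05, for 4 contrasts. Against the cDC1 gate 43 of 78 genes are higher in the Prdm16 gate, and in the cDC1 gate 40 of 78 are lower than in the Sirpa gate.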

How the data were processed

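RNA and hashtag libraries came from the Chromium kit for 3′ ends (v3), per the labels' protocols. The authors deposited raw UMI counts per gene and barcode, made with Cell Ranger 8.0.1 on mm10, per the submitters' processing notes. The deposited assignment table gave each of 27679 barcodes (of 3247803 in the matrix) its hashtag call; its 16 columns of other values, probabilities among them, were not used. Of 19239 barcodes with 1 hashtag, 1294 had fewer than 500 genes and 3627 more than 10% mitochondrial UMIs, and 15480 passed both filters. Hashtag multiplets were left out and no doublet caller was run.

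The 6 genes and the lists were chosen with earlier results of these data known. UMIs were summed per gate and hashtag (34 sums of at least 10 cells) and fitted with edgeR 4.0.16 (R 4.3.3; TMM, filterByExpr, gate plus hashtag as a block, quasi-likelihood test). Gate genes stayed out of the counts of called genes (13010 counted). The fit was tested on simulated data. Hashtags pair gates because a hashtag marks 1 replicate, per the labels; deviations from gate means correlated at 0.32 to 0.70 within hashtags. They correlated as much, at 0.29 to 0.70, between different hashtags among 2, 4 and 5 or among 6, 8 and 9, and at -0.70 to -0.31 across these sets, so the correlation does not single out the hashtag. Named list genes are taken from at most 3 called genes per list and contrast with the largest change and 1 sign in every hashtag. Those with fewer than 10 UMIs in either gate are not given a fold. Intervals (95%) are exact binomial or Poisson and cover counting error only. Alternatives were RLE size factors, DESeq2 1.42.0, no low-count filter, no block, other cell filters and gates, and leaving out each hashtag. A marker and a list gene are not reported here.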

Additional observations from a re-analysis of the deposited data

Results flagged for a closer look

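Of 30 groups of 5 or 6 hashtags examined, 1 had a sample far from the rest. Dscaml1 in the Mgl2 gate was at 15.0 CPM in hashtag 2, against 4.21 CPM in the next highest of 5 hashtags. That value came from 2 UMIs in 14 cells. Chance flags about 1 in 20 such groups, and no cause was tested.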

How the results depend on the processing

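The Prdm16 gate rests on few cells, 23 to 32 in each of 5 hashtags, and the Mgl2 gate on 14 and 27 in hashtags 2 and 4; sequencing depth limits low levels in such sums. Leaving out each hashtag in turn gave 2642 to 3731 genes called for the Prdm16 against the Fscn1 gate (3853 with all), 4201 to 5002 against the cDC1 gate, 3669 to 4484 against the Sirpa gate, and 4719 to 5492 for the cDC1 against the Sirpa gate. Without the replicate block, which pairs gates by hashtag, 2396 genes were called for the Prdm16 against the Fscn1 gate and 3422 for the cDC1 against the Sirpa gate; the cause was not tested. The other 110 of 112 recomputed counts stayed within 1.5 times the main count. Scaling moved the share of calls that were higher in the Prdm16 gate against the cDC1 gate, from 48.5% to 60.6% with RLE factors and 62.0% with DESeq2, as the median of all genes moved from -0.08 to 0.07 and 0.10. Against the Sirpa gate DESeq2 moved it from 46.3% to 57.5%. Against the Fscn1 gate it went from 44.4% to 53.2% with RLE factors and 54.0% with DESeq2. No named gene reversed, and 958 of 980 recomputed values kept their call. With each gate taken alone, cells in several gates raised the median level over hashtags of Dscaml1 to 7.90 CPM in the cDC1 gate and 42.4 CPM in the Sirpa gate, and of Cadm1 to 147 CPM in the Sirpa gate. Thinning lowered all 24 shares of cells with a UMI by construction.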
